A study of Mus musculus with 7 samples.

Results

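Free fatty acids and related lipids are sensed at the cell surface by a small set of receptors, and 6 of the genes in the deposited count table encode them: the free fatty acid receptors Ffar1, Ffar2, Ffar3 and Ffar4, the receptor for fatty acid amides Gpr119, and the scavenger receptor and fatty acid translocase Cd36. The genes were taken by symbol from a table of 55536 genes. The set was chosen with earlier results of these data known, so counts of calls within it are a description. They were followed in mouse pancreatic alpha cells, the glucagon-secreting cells of the islet, in 4 control and 3 knockout (KO) libraries. Control animals had the genotype Nkx2.2+/+;Gcg-iCre;Rosa26:tdTomato and KO animals Nkx2.2fl/fl;Gcg-iCre;Rosa26:tdTomato, so both groups carried the Cre recombinase driven by the glucagon gene and the red reporter by which the cells were sorted. The reporter marks cells in which glucagon-driven Cre has been active, which may include cells that later changed their hormone. The labels give neither the age of the mice nor how many animals stood behind a library, so p-values measure the spread between these libraries, which may be partly technical.

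FFAR1 and FFAR4 bind medium-chain and long-chain fatty acids, while FFAR2 and FFAR3 bind short-chain fatty acids such as acetate, propionate and butyrate. FFAR1 acts mainly through Gq proteins, FFAR3 through Gi proteins, FFAR2 through both, and FFAR4 through Gq or, in delta cells, Gi. GPR119 binds oleoylethanolamide and monoacylglycerols, couples to Gs and raises cyclic AMP, and it is known from islets and from the hormone-secreting cells of the gut. CD36 is not G protein-coupled and carries long-chain fatty acids and oxidized lipoproteins.

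Gpr119 transcripts fell 4.33-fold in knockout alpha cells, to 23.1% of the control mean. Ffar4 was 1.41-fold higher in KO by DESeq2, a smaller difference that did not pass in edgeR. Ffar1, Ffar2, Ffar3 and Cd36 had lower means in KO, and none of these 4 passed either test. All 6 genes passed the filter on low counts. Of the 6, 1 was called higher and 1 lower at an adjusted p under 0.05 in DESeq2, where 2.24% of all 17571 genes tested were called higher and 2.27% lower. The edgeR quasi-likelihood test called 1 of the 6 lower, Gpr119, and 0 higher, against 0.647% and 0.404% of all 19310 genes it tested.

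The promoters of the pair that moved in opposite directions are shown, because Nkx2-2 encodes a homeodomain factor of the NK2 class whose relatives bind a core of AAGTG. Each runs from 250 bases before to 50 bases after the start in RefSeq on GRCm38.p6, read on the strand of the gene, and capitals mark AAGTG on either strand.
Gpr119, minus strand of chrX:48674429-48674728: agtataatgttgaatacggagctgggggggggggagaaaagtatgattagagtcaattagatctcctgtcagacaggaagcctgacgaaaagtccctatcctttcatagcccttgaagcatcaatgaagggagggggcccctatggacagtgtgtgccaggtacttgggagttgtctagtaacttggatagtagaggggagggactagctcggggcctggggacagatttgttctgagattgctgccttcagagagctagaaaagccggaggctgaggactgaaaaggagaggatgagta
Ffar4, plus strand of chr19:38096829-38097128: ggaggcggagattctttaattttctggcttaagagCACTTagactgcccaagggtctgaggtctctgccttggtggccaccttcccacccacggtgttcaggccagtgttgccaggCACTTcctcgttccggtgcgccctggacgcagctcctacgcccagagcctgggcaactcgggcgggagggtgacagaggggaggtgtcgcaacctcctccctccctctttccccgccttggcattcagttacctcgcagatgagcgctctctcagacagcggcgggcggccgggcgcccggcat
The Gpr119 window held 0 matches to AAGTG and the Ffar4 window held 2, beginning 215 and 134 bases before the start. The core is common: 46.4% of 32841 promoter windows of this length held it on either strand, and 11.5% held the longer form TNAAGTG, which contains AAGTG. Neither of these windows held TNAAGTG. All 6 receptors matched the RefSeq table, with 9 windows between them. Of the other windows the 4 of Ffar2 and those of Ffar1 and Ffar3 held 0 matches, and that of Cd36 held 1, which was also a match to TNAAGTG. The Cd36 window (chr5:17835847-17836146) lies inside the annotated gene, which runs to 17888801 on the minus strand, so other starts of Cd36 were not covered.

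The libraries held from 45483504 to 72456557 counts. Among counts of 1 to 10, between 84.4% and 88.9% were even in each library, as would arise if the 2 mates of each pair were counted apart, so the precision of counting is uncertain. The targeted gene was checked first. Nkx2-2 had 8596, 11199, 12297 and 9782 normalized counts in controls, against 7758, 7534 and 7694 in KO 1, KO 2 and the KO library whose column number matches no KO title, called unnumbered from here on. Values by library keep this order throughout. No KO value reached the lowest control, and the difference was -0.45 on the log2 scale (SE 0.13) with adjusted p-values of 0.0218 by DESeq2 and 0.152 by edgeR. Its call held in 2 of 7 fits lacking 1 library, with adjusted p-values up to 0.156 without KO 1. How much of the transcript the deleted part covers is not given in the sources used here. Glucagon (Gcg) had an average of 7042730 ± 855536 normalized counts (SD) over the 4 controls and 3423110 ± 635109 over the 3 KO libraries (log2 fold change -1.04, adjusted p = 6.76e-10 in DESeq2 and 0.175 in edgeR), so the cells had the defining marker of their label in both groups. The summed level of 10 alpha cell markers ran from 6480370 to 8470110 normalized counts in controls and from 2973130 to 4291690 in KO. Gcg made up most of this sum (7425480 of 7759090 in control 1), so the sum adds little to Gcg itself. The summed level of 10 beta cell markers ran from 370747 to 719100 in controls and from 557040 to 998937 in KO, with 1 of 10 called, Iapp, higher. For 4 gamma cell markers it ran from 309330 to 580204 in controls and from 889660 to 1136310 in KO, and 2 of 4, Ppy and Pyy, were called higher. Over all genes tested, DESeq2 called 2.24% higher and 2.27% lower. The part of these other islet cells in the receptor results was not tested. A library of many cells cannot tell fewer cells of a type from less RNA per cell, and this holds for every value that follows.

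Gpr119 lies on the X chromosome (ENSMUSG00000051209, GRCm38, 48667979 to 48674478, minus strand), and exons of other genes cover 0% of its exons. It had 1552, 1177, 1624 and 1895 normalized counts in controls, and 354, 434 and 296 in KO. The highest KO library lay far below the lowest control. The 4 controls averaged 1562 ± 296 (SD) and the 3 KO libraries 361 ± 69. On the log2 scale KO minus control was -2.11 (SE 0.20), at an adjusted p of 6.5e-22 in DESeq2 and 0.00485 in edgeR. By adjusted p it ranked 6 among the 792 genes called, and by log2 fold change it ranked 38 among the 398 called lower. Leaving out any 1 of the 7 libraries kept Gpr119 past the threshold, with log2 fold changes between -2.27 and -1.99.

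**Figure D1:**
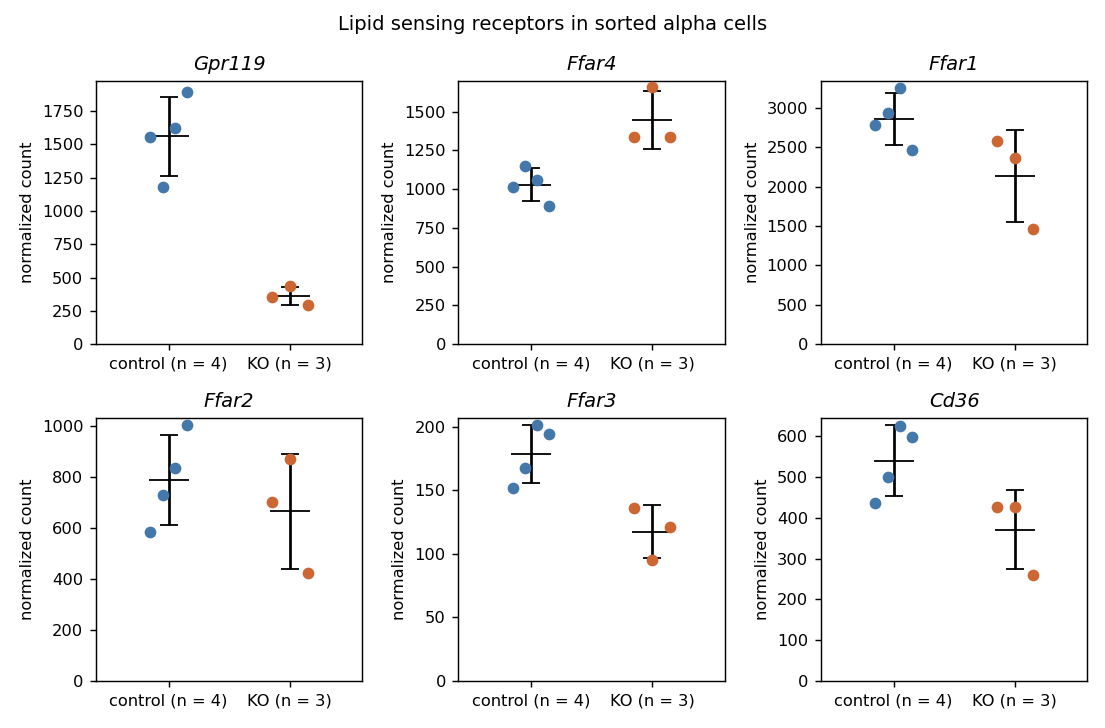
Normalized counts (vertical axis, from 0) of the 6 receptors in control (blue) and KO (orange) libraries, each point 1 library, with the mean and SD as bars. The KO libraries of Gpr119 sit between 296 and 434, all below the lowest control at 1177, and those of Ffar4 sit above all controls.

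The difference in Gpr119 was set against that in glucagon within each library, where scaling between libraries plays no role. The log2 ratio of Gpr119 to Gcg counts was -12.22, -12.44, -12.28 and -11.67 in controls and -13.20, -13.21 and -13.23 in the KO libraries. Relative to glucagon, whose own counts were lower in KO by a log2 fold change of -1.04, Gpr119 was lower by a further 1.06 on the log2 scale (KO minus control -1.06), with no overlap between the groups. The two-sided exact permutation test gave p = 0.0571, the smallest that 4 against 3 libraries allow, and 0.114 after adjustment over 2 ratios tested. Of 9 alpha cell markers tested, 7 were called lower and 0 higher. Over all genes tested, DESeq2 called 2.27% lower and 2.24% higher. Slc38a5, among those 7, had a log2 fold change of -2.14, close to that of Gpr119, so the further difference holds relative to glucagon only. The part of the lower alpha cell marker level in the Gpr119 result was not tested beyond the ratio to Gcg.

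The gene is X-linked, and Y-linked transcripts differed between libraries. The summed normalized count of 4 Y-linked genes was 4.54 and 0 in controls 1 and 2, 8764 and 8844 in controls 3 and 4, and 1675, 3491 and 11338 in KO. With the log2 of this sum plus 1, centred on its mean, as a covariate the log2 fold change of Gpr119 was -2.25 (adjusted p = 3.99e-23 in DESeq2).

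The genes whose levels followed Gpr119 most closely over the 7 libraries were Slc38a5 (Pearson r = 0.996 across libraries, on log2 normalized counts), a glutamine transporter of alpha cells, Ankrd6 (0.993) and Lhfpl2 (0.991). They are the highest of 12441 genes compared and are given as a description. Their own log2 fold changes were -2.14, -1.97 and -0.77. Of the genes beside Gpr119, Slc25a14, which encodes a mitochondrial carrier and lies 5685 bases away, had 421 ± 61.5 normalized counts in controls, against 358 ± 15.2 in KO (adjusted p = 0.811 in DESeq2). Rbmx2, an RNA-binding protein gene 20526 bases away on the other side, fell from 749 ± 68.1 to 516 ± 80.4, a log2 fold change of -0.54 (adjusted p = 0.0387 in DESeq2, 0.157 in edgeR). Its call held in 2 of 7 fits lacking 1 library, and with the column numbers 1, 2 and 4 of the count table as a block its adjusted p was 0.171.

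**Figure D2:**
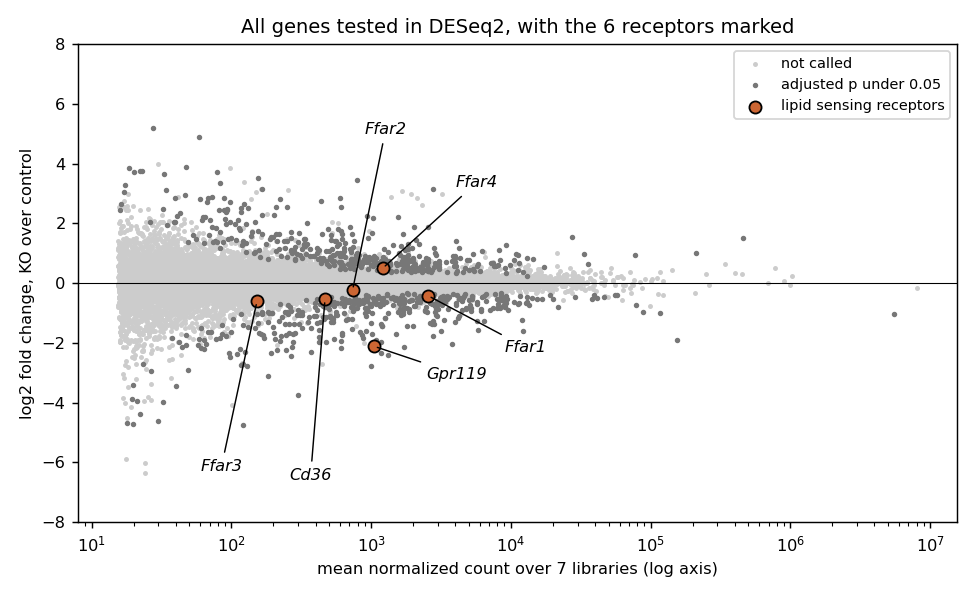
Log2 fold change of KO over control (vertical axis) against the mean normalized count over 7 libraries (horizontal log axis) for the 17571 genes tested in DESeq2, with called genes in dark grey and the 6 receptors in orange. Gpr119 stands at -2.11, below the other 5 receptors, which lie between -0.61 and 0.49.

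Ffar4, the receptor for long-chain unsaturated fatty acids, lies on chromosome 19 (ENSMUSG00000054200, 38097071 to 38114263, plus strand) and shares no exon bases with other genes. It had 1015, 1151, 1056 and 893 normalized counts in controls, against 1336, 1660 and 1340 in KO. Every KO library lay above every control, and KO 2 was the highest. The 4 controls averaged 1029 ± 107 (SD) and the 3 KO libraries 1445 ± 186. On the log2 scale this was a difference of 0.49 (SE 0.15), at an adjusted p of 0.0292 in DESeq2 and 0.132 in edgeR. Of the fits that left out 1 library, 1 of 7 kept the call, the one without control 2 (adjusted p = 0.0258). The other 6 gave adjusted p-values up to 0.321, the value without KO 2, while the log2 fold change stayed between 0.38 and 0.55.

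Ffar4 is a known transcript of delta cells, and delta cell markers were therefore read beside it. The summed level of 4 delta cell markers (Sst, Hhex, Rbp4 and Ghsr) ran from 196262 to 398978 normalized counts in controls and from 355301 to 632402 in KO. Sst made up most of this sum (328795 of 345478 in control 1). Of these 4 markers, Rbp4 was called higher, where 2.24% of all genes tested were. The log2 ratio of Ffar4 to Sst was -8.34, -8.34, -7.67 and -7.71 in controls and -8.77, -7.50 and -8.25 in KO. The groups overlapped (KO minus control -0.16, exact permutation p = 0.743, two-sided, and 0.743 after adjustment over the 2 ratios tested). Sst was not called (adjusted p = 0.513 in DESeq2), with KO minus control at 0.64 on the log2 scale and overlapping groups. The ratio had an SD of 0.38 in controls and 0.64 in KO, beside a Ffar4 difference of 0.49. With this spread the ratio cannot tell whether the Ffar4 difference followed Sst. The part of delta cell RNA in the Ffar4 result was not tested.

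Rbp4, the retinol-binding protein gene, is also the neighbour of Ffar4, ending 2366 bases beyond it on the opposite strand so that their ends face each other. It had 15060, 24494, 11752 and 8547 normalized counts in controls, against 47167, 54008 and 30558 in KO. Every KO library lay above every control. The log2 fold change of Rbp4 was 1.55 (SE 0.44) with adjusted p-values of 0.0127 by DESeq2 and 0.0761 by edgeR, and its call held in 3 of 7 fits lacking 1 library, with adjusted p-values up to 0.186 without KO 1. Cep55, the cell division gene on the other side of Ffar4 at 22648 bases, had 33.5 ± 12.1 normalized counts in controls, against 29.7 ± 8.31 in KO (adjusted p = 0.998). The levels most like that of Ffar4 across the 7 libraries were those of Igfbp3 (r = 0.997), a binding protein of insulin-like growth factors, the adhesion molecule gene Alcam (0.992) and the centrosomal gene Cep78 (0.992).

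Ffar1, Ffar2 and Ffar3 lie together within 43217 bases of chromosome 7, all on the minus strand, in the order Ffar2, Ffar3, Ffar1 along the chromosome. Ffar3 and Ffar1 are 1212 bases apart, and 30555 bases separate Ffar2 from Ffar3. None of the 3 was called. Ffar1 (ENSMUSG00000044453, 30857390 to 30861564), the long-chain fatty acid receptor best known from beta cells, had 2782, 2939, 3251 and 2460 normalized counts in controls, against 2575, 2365 and 1468 in KO. The groups overlapped, since KO 1 lay above control 4, and the unnumbered KO library was the lowest of all 7. The log2 fold change of Ffar1 was -0.42 (95% interval -0.80 to -0.04, unadjusted p = 0.0307, adjusted p = 0.304 in DESeq2). Without the unnumbered KO library it was -0.21. With a term for the pair of deepest libraries, control 4 and the unnumbered KO library, it was -0.41 with an adjusted p of 0.0129.

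Ffar2 (ENSMUSG00000051314, 30818348 to 30823775), a short-chain fatty acid receptor, had 584, 730, 835 and 1005 normalized counts in controls, against 704, 872 and 422 in KO. KO 1 and KO 2 lay within the range of the controls and the unnumbered KO library below it. The log2 fold change was -0.25 (95% interval -0.77 to 0.28, adjusted p = 0.932 in DESeq2), and -0.01 without the unnumbered KO library. Its sign was not stable: the value was 0.13 without the 2 deepest libraries.

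Ffar3 (ENSMUSG00000019429, 30854330 to 30856178), the other short-chain receptor, was the scarcest, with raw counts between 92 and 269. It had 152, 167, 201 and 194 normalized counts in controls, against 136, 95 and 121 in KO, so that the groups did not overlap. For Ffar3 the log2 fold change was -0.61 (95% interval -1.14 to -0.07, unadjusted p = 0.0273, adjusted p = 0.283 in DESeq2 and 0.455 in edgeR). It lay between -0.72 and -0.48 across all alternatives and was called in none of them. At this depth a difference of the size measured in Gpr119 lies outside the interval of each of these 3 genes.

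The genes that flank the cluster were low. Cd22, the B cell lectin gene 3838 bases from Ffar1 on the same strand, had 31.8, 30.7, 70.6 and 130 normalized counts in controls, against 10.8, 16.5 and 17.8 in KO. Its log2 fold change was -2.13 (SE 0.67) with adjusted p-values of 0.036 by DESeq2 and 0.206 by edgeR, and without control 4 it was -1.55 (adjusted p = 0.189). The Cd22 call held in 2 of 7 fits lacking 1 library, and with the column numbers 1, 2 and 4 as a block its adjusted p was 0.205. Opposite-strand exons cover 9.5% of the exon length of Cd22, 9.67% of that of Nkx2-2, 9.91% of that of Acsl1, 11.2% of that of Slc27a2 and 7.56% of that of Lpar6, and without a stated strand setting the counts of these genes are uncertain. Krtdap, a keratinocyte gene 27251 bases beyond Ffar2, had at most 1.45 normalized counts in any library. The summed level of 8 leukocyte and macrophage markers ran from 1020 to 1579 normalized counts in controls and from 941 to 1054 in KO, with 1 of 4 tested, C1qa, called lower. DESeq2 called 2.27% of all genes tested lower. The part of leukocyte RNA in the Cd22 counts was not tested.

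Cd36 (ENSMUSG00000002944, chromosome 5, 17781690 to 17888801, minus strand) is abundant in capillary endothelium, macrophages and fat cells and moves fatty acids across the cell membrane. It had 437, 500, 625 and 598 normalized counts in controls, against 426, 428 and 260 in KO. The KO libraries lay below the controls, but KO 1 and KO 2 were close to control 1. The log2 fold change was -0.54 (95% interval -1.01 to -0.07, unadjusted p = 0.0241, adjusted p = 0.26 in DESeq2 and 0.413 in edgeR). Without the unnumbered KO library it was -0.34, and without that library and control 4 it was -0.29.

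Cd36 is a marker of several cells that a sort could carry over, so their markers are given. The summed level of 7 endothelial markers ran from 437 to 689 normalized counts in controls and from 398 to 1212 in KO, with 0 of 7 called. DESeq2 called 4.51% of all genes tested in either direction. All 6 adipocyte markers, Adipoq among them, had a mean under 5 normalized counts. The part of endothelial and leukocyte RNA in the Cd36 counts was not tested. The nearest genes were Sema3c, a secreted guidance factor gene 51422 bases away, and Gnat3, the taste G protein gene, 73748 bases away. Sema3c rose from 191 ± 35.9 to 398 ± 99.5 normalized counts (log2 fold change 1.06, adjusted p = 0.00309 in DESeq2 and 0.0985 in edgeR), and without KO 1 its adjusted p was 0.17. Gnat3 had 21.9 ± 12.9 and 8.04 ± 6.97.

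In 4 of the 6 receptors, Gpr119, Ffar3 and Cd36 lower and Ffar4 higher, the control and KO libraries did not overlap, while 12% of all genes tested had groups that did not overlap, 6.07% with KO higher and 5.94% with KO lower. The median log2 fold change of the 6 was -0.48, against 0.01 over all genes tested. The 3 genes most alike in level were for Ffar1 H2afy2, Pnmal1 and Atp5e (r from 0.982 to 0.985), for Ffar2 Tmem94, Tnrc18 and Fam53b (0.977 to 0.986), for Ffar3 Camta2, Prdm4 and Glb1l2 (0.972 to 0.983) and for Cd36 Mphosph6, Serp2 and Amph (0.982 to 0.988). Of these 12, Glb1l2 alone was called (log2 fold change -1.08, adjusted p = 2e-06 in DESeq2).

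To compare the receptors with each other, normalized counts were divided by the exon length of each gene in kilobases. In controls Ffar4 (734 ± 76.5 per kilobase), Gpr119 (688 ± 130) and Ffar1 (685 ± 78.9) were the highest, and their libraries overlapped. Ffar2 (283 ± 63.4), Cd36 (150 ± 24.3) and Ffar3 (96.7 ± 12.5) followed, each separated from the next in all 4 libraries and without overlapping ranges. In KO the order was Ffar4 (1032 ± 133), Ffar1 (512 ± 141), Ffar2 (239 ± 81.4), Gpr119 (159 ± 30.4), Cd36 (103 ± 26.8) and Ffar3 (63.5 ± 11.2). Gpr119 thus stood among the 3 highest of the set in controls and below Ffar2 in all 3 KO libraries, though their ranges overlapped. Cd36 likewise lay above Ffar3 in all 3 KO libraries, with overlapping ranges.

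**Figure D3:**
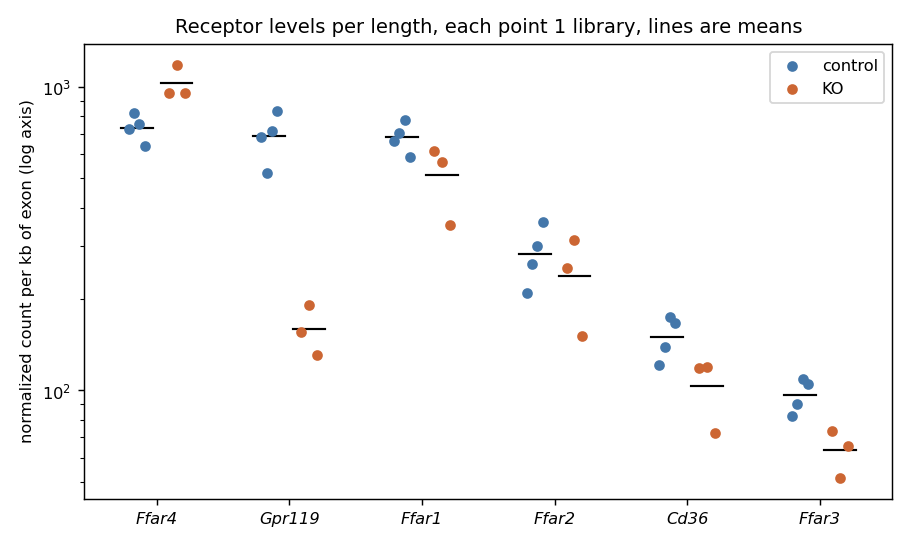
Normalized counts per kilobase of exon (vertical log axis) for each receptor, control in blue and KO in orange, each point 1 library and each line a mean. Gpr119 goes from 688 to 159, while Ffar4 goes from 734 to 1032.

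As a share of the summed per-kilobase level of the 6 receptors, Gpr119 made up 26.1% ± 4.42 (SD) over the 4 controls and 7.54% ± 0.348 over the 3 KO libraries. Ffar4 made up 28% ± 3.71 and 49.4% ± 5.73. The log2 ratio of Ffar4 to Gpr119 per kilobase was 0.08, 0.66, 0.08 and -0.39 in controls and 2.61, 2.63 and 2.87 in KO. The KO minus control difference was 2.60, given as a description with no test, since the pair was taken for its opposite differences. The sum over the 6 receptors ran from 2488 to 2831 per kilobase in controls and from 1728 to 2425 in KO.

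The wider pathway was read from 7 lists of 168 genes, of which 131 were tested. DESeq2 called 4 listed genes higher and 11 lower, 11.5% of those tested against 4.51% of all genes. The lists were chosen with earlier results of these data known, which can raise this share, so it is given as a description. The same 4.51% over all genes stands beside the DESeq2 counts of each list below. The median log2 fold change of the listed genes was -0.01, against 0.01 over all genes. In 14 of the 15 called genes the groups did not overlap, which the choice of called genes favours. The edgeR test called 7 of them, where it called 1.05% of all genes it tested. Those 7 were also called in all 7 fits that left out 1 library.

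The cyclic AMP cascade, which GPR119 feeds through Gs, was read with Gi proteins in 1 list. From Gs and Gi proteins through adenylyl cyclases to protein kinase A and the arrestins, it held 25 genes. Of 24 tested, 1 was called higher and 3 lower, with a median log2 fold change of -0.08. Of the adenylyl cyclase genes, Adcy1 was called lower and Adcy5 higher, and the others tested were not called. Adcy1, a calcium-stimulated adenylyl cyclase, fell from 4601, 3661, 2851 and 3796 normalized counts in controls to 1527, 1584 and 1189 in KO, or -1.38 ± 0.18 (SE) as a log2 fold change (adjusted p = 5.19e-12 in DESeq2, 0.0135 in edgeR). Adcy5, a calcium-inhibited adenylyl cyclase, rose from 1245, 1398, 1079 and 950 to 2472, 3285 and 1846, or 1.12 ± 0.21 (adjusted p = 1.21e-05 in DESeq2, 0.0411 in edgeR). In neither gene did the groups overlap.

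The Gi-class subunits Gnao1 and Gnaz were lower. Gnao1 fell from 44050 ± 2320 to 33502 ± 910 normalized counts (log2 fold change -0.39, adjusted p = 0.000157 in DESeq2 and 0.128 in edgeR). Gnaz fell from 4591 ± 306 to 3446 ± 557 (-0.41, adjusted p = 0.0486 and 0.187) and kept its call in 2 of 7 fits lacking 1 library, with up to 0.245 without KO 1. The most abundant genes of the list were Gnas, Gnao1 and Prkacb. Gnas, the Gs alpha subunit gene, had 157381, 132852, 185923 and 29312 normalized counts in controls, against 100474, 113176 and 77610 in KO, so control 4 stood far below the other controls. Exons of opposite-strand genes cover 22% of its exon length, and its counts are uncertain. Prkacb, a catalytic subunit of protein kinase A, had 19595 ± 2084 in controls.

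In the Gq arm, which carries FFAR1 and FFAR4 signals through phospholipase C to calcium release and protein kinases C and D, 2 of 19 tested genes were called higher and 3 lower (median log2 fold change -0.03). The inositol trisphosphate receptors Itpr1 and Itpr3, calcium channels of the endoplasmic reticulum, were both lower. Itpr3 fell from 8885, 8737, 9490 and 9773 normalized counts in controls to 5984, 4742 and 4912 in KO (log2 fold change -0.82, adjusted p = 3.53e-10 in DESeq2 and 0.0137 in edgeR). Itpr1 fell from 52838 ± 5476 to 38498 ± 2484 (-0.46, adjusted p = 0.00212 and 0.151), and without KO 1 its adjusted p was 0.0801. The kinase gene Prkd1 fell from 1680, 1677, 2837 and 2391 to 562, 691 and 720 (-1.71, adjusted p = 5.48e-13 and 0.0114).

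The phospholipase gene Plcb4 and the diacylglycerol kinase gene Dgkz were higher. Plcb4 rose from 3363, 3831, 3215 and 3015 to 4964, 5045 and 4868 (log2 fold change 0.56, adjusted p = 5.17e-05 in DESeq2 and 0.0357 in edgeR). Dgkz, whose enzyme removes diacylglycerol, rose from 4708 ± 411 to 7340 ± 1207 (0.64, adjusted p = 0.000252 and 0.0527). Gnaq, the Gq alpha subunit gene, had 8037 ± 386 in controls and 7400 ± 1184 in KO (adjusted p = 0.924).

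Fatty acid uptake and activation held 25 genes, of which 19 were tested, 1 called higher and 3 lower (median log2 fold change 0.00). Lpl, lipoprotein lipase, which frees fatty acids from circulating triglyceride, fell from 14222, 14996, 20244 and 14031 normalized counts in controls to 7141, 7763 and 5521 in KO (log2 fold change -1.22, adjusted p = 1.11e-10 in DESeq2 and 0.0157 in edgeR). Slc27a2, a very long-chain fatty acid transporter and acyl-CoA synthetase, fell from 294, 561, 395 and 384 to 68.4, 109 and 97.0 (-2.16, adjusted p = 1.29e-10 and 0.0137). Cav1, the caveolin of membrane lipid rafts, fell from 132, 99.1, 225 and 305 to 56.7, 41.3 and 17.8 (-2.31, adjusted p = 0.00038 and 0.1). All 3 kept their call in each of the 7 fits that left out 1 library, but Cav1 was at -1.24 (adjusted p = 0.489 in DESeq2) in the fit on 4 libraries with the replicate numbers 1 and 2 as a block.

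Acsl1, a long-chain acyl-CoA synthetase, rose from 711 ± 113 to 1020 ± 52.8 (log2 fold change 0.52, adjusted p = 0.0357 in DESeq2 and 0.146 in edgeR) and kept its call in 1 of those 7 fits, with up to 0.263 without KO 2. With the column numbers 1, 2 and 4 as a block its adjusted p was 0.078. Besides Lpl, the most abundant genes of the list were Acbd3, an acyl-CoA binding domain protein with 7352 ± 537 normalized counts in controls, and Scarb2, a lysosomal membrane protein related to CD36, with 6339 ± 767.

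**Figure D4:**
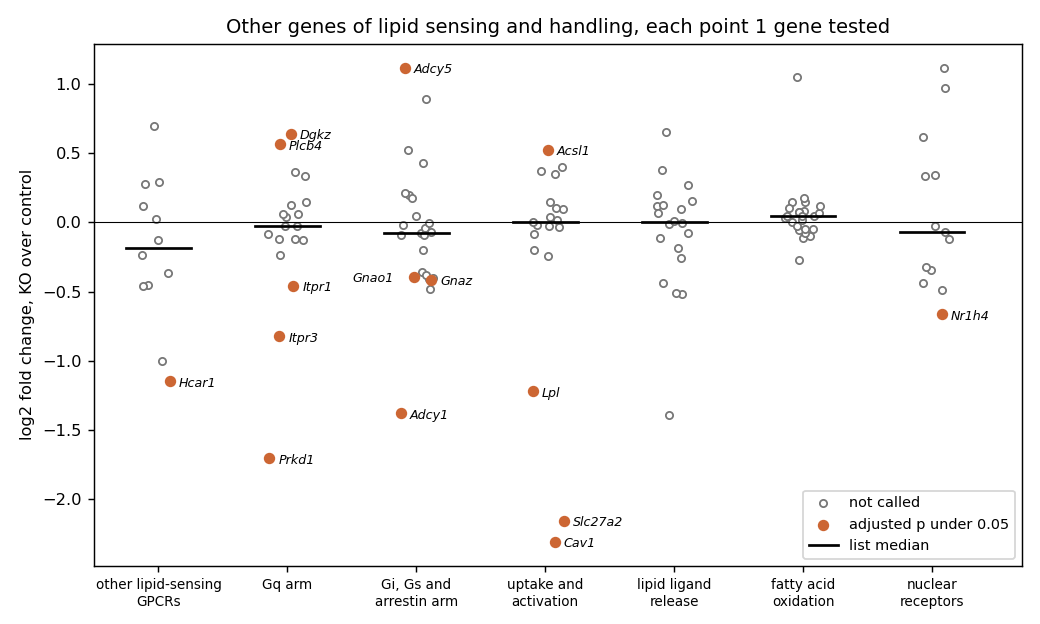
Log2 fold change of KO over control (vertical axis) for the tested genes of 7 lists of lipid sensing and handling, called genes in orange with their names and each list's median as a line. The medians lie between -0.18 and 0.05. No gene of ligand release or fatty acid oxidation was called, where 4.51% of all genes tested were.

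Among 34 further lipid-sensing G protein-coupled receptors, for prostanoids, lysophosphatidic acid, sphingosine 1-phosphate, cannabinoids and others, 12 had enough counts to be tested, and their median log2 fold change was -0.18. DESeq2 called 1 lower. This was Hcar1, the lactate receptor of a family that includes the ketone body receptor. It had 420, 627, 724 and 733 normalized counts in controls, against 213, 471 and 164 in KO. The groups overlapped, since KO 2 lay above control 1, and the log2 fold change was -1.15 (adjusted p = 0.0274 in DESeq2 and 0.236 in edgeR). It kept its call in 3 of the 7 fits, with up to 0.283 without KO 1. The prostaglandin receptor Ptger3 (349 ± 126 in controls) and the lysophosphatidic acid receptor Lpar6 (220 ± 42.5) were the other abundant members.

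Genes that make or clear lipid ligands showed 0 calls of 20 tested in DESeq2 and 0 in edgeR, with a median log2 fold change of 0.00. The list includes Faah, the amidase that degrades oleoylethanolamide, the GPR119 ligand, with 2366 ± 141 normalized counts in controls and 2384 ± 178 in KO (log2 fold change 0.01, adjusted p = 0.999 in DESeq2). The triglyceride lipase gene Pnpla2 had 2026 ± 213 in controls and the phospholipase gene Pla2g6 4503 ± 601. Fatty acid oxidation likewise had 0 calls of 24 tested in DESeq2 and 0 in edgeR, again near those shares, with a median of 0.05. Hadh, a mitochondrial dehydrogenase that is abundant in beta cells, had 4429 ± 1948 in controls and 9193 ± 1220 in KO with no overlap (log2 fold change 1.05, adjusted p = 0.108 in DESeq2 and 0.175 in edgeR). Hadha, a subunit of the mitochondrial trifunctional protein, had 5649 ± 551 in controls.

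The lipid-responsive nuclear receptors had 1 call lower of 13 tested, with a median of -0.07. Nr1h4, the bile acid receptor gene, fell from 495, 412, 480 and 499 normalized counts to 259, 260 and 370 (log2 fold change -0.67, adjusted p = 0.0349 in DESeq2 and 0.165 in edgeR), and kept its call in 2 of the 7 fits, with up to 0.36 without KO 1. With the column numbers as a block its adjusted p was 0.088. The abundant members were Rxra (4913 ± 949 in controls), Nr1h2 (2970 ± 158) and Ppard (2890 ± 234).

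**Figure D5:**
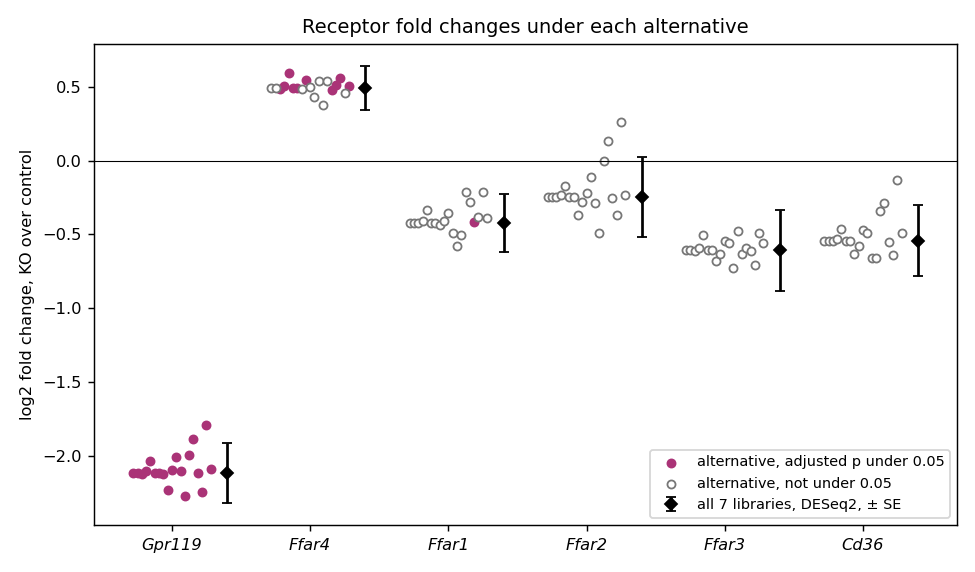
Log2 fold change of each receptor (vertical axis) under 19 alternative settings, filled where the adjusted p was under 0.05, with the DESeq2 value on all 7 libraries as a diamond ± SE. Gpr119 was called in all 19, between -2.27 and -1.79, and Ffar4 in 10.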

How the data were processed

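RNA from sorted alpha cells was sequenced after library preparation with a stranded total RNA kit from Takara (SMARTer, Pico input), per the labels' protocols. The authors deposited raw counts per gene for 7 libraries. STAR, featureCounts and build mm10 are named in the submitters' processing notes; versions and the strand setting are not given in the sources used here. The 55536 identifiers all occur in GENCODE M21 (GRCm38), which gave positions and exon lengths. 1 KO column has a number that no KO title carries, so it entered the KO group unnumbered.

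KO was compared with control in DESeq2 1.42.0 (R 4.3.3, Wald test, no covariate, the design the series states) over 35178 genes with a count, with Benjamini-Hochberg adjustment at 0.05. Normalized counts are counts divided by DESeq2 size factors. As an alternative, edgeR 4.0.16 was run with TMM scaling and its quasi-likelihood test. Both were tested on simulated data. Exact tests used SciPy 1.17.1. The genes named are the 6 receptors, their neighbours, Nkx2-2, listed genes that were called, the 3 most abundant genes of each list and the 3 genes most alike to each receptor. 1 gene that this rule names is not reported here. Members and lists were chosen with earlier results of these data known.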

Additional observations from a re-analysis of the deposited data

Results flagged for a closer look

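In 46 genes, the highest or lowest of the 4 control values was set against the remaining 3 with Dixon's gap ratio. These were the receptors, their neighbours, Nkx2-2 and the listed genes that were called or most abundant. The genes most alike to each receptor, Gcg, Sst and the remaining cell type markers were not checked. The 95% critical value flags about 1 in 20 groups by chance, 2.3 here. The check found 2. For Lpl, control 3 was the highest at 20244 normalized counts, with a gap to the next control of 0.845 of the controls' range. Without control 3 the Lpl call was kept. For Krtdap, control 4 was the highest with 1.45 normalized counts while the other controls had 0, a gap of 1 of the range, at a level of almost no counts. None of the 6 receptors was among them.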

How the results depend on the processing

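Gpr119 kept its direction and call under all 19 alternatives, with log2 fold changes from -2.27 to -1.79. Ffar4 stayed higher under all 19 but lost its call in edgeR (0.49, adjusted p 0.132) and without independent filtering (0.49, 0.056), and across the fits without 1 library it ran from 0.38 to 0.55. Ffar1 was called only with a term for the 2 deepest libraries (-0.41). Ffar2 reversed without the 2 deepest libraries (0.13). The cause was not tested. Ffar3 and Cd36 were called under no alternative.

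Over all genes, 792 were called with all libraries, 203 in edgeR, 1379 with the term for the 2 deepest libraries, 1276 with the Y-linked covariate, and from 430 (without KO 1) to 907 without 1 library. With library totals as the scale the all-gene median was 0.11 and gave 684 higher and 297 lower calls against 394 and 398. Listed genes called numbered 15, 7 in edgeR and 10 to 18 without 1 library. Of the other called genes, 20 were followed: the 15 listed genes, Nkx2-2, Rbp4, Cd22, Rbmx2 and Sema3c. Of their 380 alternative values, 292 kept direction and call, 88 lost the call and 0 reversed. Other called genes named here, Gcg among them, were not included.

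With the replicate numbers 1 and 2 as a replicate block on 4 libraries, Ffar4 was 0.46 (adjusted p 0.181), Ffar2 reversed to 0.26, Gpr119 was -1.79, and 578 genes were called. The labels do not say that a number marks a shared animal or day. Deviations of libraries with the same column number correlated at 0.231 (1), 0.301 (2) and 0.482 (4, the unnumbered KO library), while KO 2 correlated more with control 3 (0.407). The block on numbers 1 and 2 also ended the calls of Hcar1, Gnaz, Cav1 (-1.24, adjusted p 0.489), Acsl1, Nr1h4, Nkx2-2, Rbmx2 and Sema3c, and gave Cd22 no adjusted p. A block by the column names, 1, 2 and 4, was chosen after seeing the data. It gave 0.50 for Ffar4 (adjusted p 0.00914), -2.09 for Gpr119 and 1008 calls. Among the other genes followed, it ended the calls of Acsl1 (adjusted p 0.078), Nr1h4 (0.088), Cd22 (0.205) and Rbmx2 (0.171). With all counts divided by 2 the SE of Ffar3 was 0.30 against 0.27.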
